A study of Homo sapiens with 2 samples.

Results

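The heat shock proteins, their J-protein partners and the chaperonins of HK-2 cells were examined in 2 RNA sequencing libraries. The set took every protein-coding gene with the symbol HSPA, HSPB, DNAJA, DNAJB, DNAJC or CCT and a number, and 15 further symbols. Those were TCP1, HSPD1, HSPE1, HSPH1, HSP90AA1, HSP90AB1, TRAP1, HSF1, HSF2 and BAG1 to BAG6. The ER genes HSPA5, DNAJB9 and DNAJC3 were left out, as was CCT8L2, whose symbol holds a second number. This gave 85 of the 58302 gene identifiers in the count tables. The rule uses symbols and no measured value, but the set was chosen with earlier results of these data known.

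HK-2 is an established cell line derived from human proximal tubule epithelium. Per the labels, cells at passage 7 to 11 were grown at 37 °C and 5% CO2 with 10% fetal bovine serum and 1% antibiotics. They were infected for 24 h with an adenovirus. One virus carried green fluorescent protein (Ad-GFP) and the other the coding sequence of Bmal1, a circadian transcription factor (Ad-Bmal1). There was 1 library per virus, so no difference has a replicate check and no test between the groups was made. No uninfected cells were analysed here. The libraries held 20032652 counts (Ad-GFP) and 20051735 counts (Ad-Bmal1). BMAL1 itself had 204 and 133 counts, a ratio of 0.667 (0.532 to 0.834), which goes against the label, so directions are given for the library labelled Ad-Bmal1. Whether transcripts of the vector were counted under BMAL1 is not given in the sources used here.

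Of 12 proximal tubule markers 3 reached 1 CPM (a count scaled to library size) in a library, GGT1, PDZK1 and MME, and LRP2, SLC22A6 and SLC22A8 were at 0. Of 6 epithelial markers 5 did, led by KRT8 with 20712 and 19292 counts, while CDH1 had 1 and 4 counts. The summed CPM of 6 blood markers was 21.5 and 20.6, nearly all from CSF1R, with PTPRC at 0. Endothelial markers summed to 1.53 and 0.606 CPM, and male germ cell markers to 0.247 and 0.151. Fibroblast and muscle markers summed to 128 and 144 CPM, nearly all from COL1A1 and TAGLN, the only 2 of 9 that reached 1 CPM. The hepatocyte list summed to 297 and 264 CPM, mostly SERPINA1, while ALB within it had 9 and 165 counts. APOA1, TTR and TF, all below 1 CPM, had 0 and 15, 0 and 9, and 1 and 14 counts, and FGB had 21 and 21. The part of such differences in the chaperone values was not tested. Fewer cells of a type and less RNA per cell cannot be told apart in such bulk samples.

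Chaperones bind unfolded protein and help it reach its shape. HSP70 proteins do so in cycles of ATP use that J proteins (the DNAJ families) start and that exchange factors such as the BAG proteins and HSP110 end. HSP90 acts later on clients such as kinases and receptors, small heat shock proteins hold clients without ATP, and the CCT ring folds actin and tubulin in a closed chamber. HSPD1 and HSPE1 form the matching chamber of mitochondria. Under stress the factor HSF1 is released from chaperones and switches on many of these genes through heat shock elements, inverted repeats of GAA. In the kidney tubule this response is known from ischaemic and toxic injury.

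Below, paired values give the library labelled Ad-GFP first, and a ratio is the library labelled Ad-Bmal1 over the other after TMM scaling. The bracketed 95% interval is exact and covers counting error only, not variation between cultures. Of the 85 genes 71 were measured, meaning that they reached 1 CPM, about 20.3 and 19.8 counts, in at least 1 library. Among these only DNAJC27 reached it in a single library. The other 14 had at most 9 counts in a library. Of them DNAJB8, DNAJC15, DNAJC5G, HSPB3 and HSPB7 had 0 counts in both, which allows up to 0.148 and 0.151 CPM. The remaining 9 were CCT6B, DNAJA4, DNAJB7, DNAJB13, DNAJC5B, DNAJC28, HSPB2, HSPB6 and HSPB9. Several of these 14 are best known from muscle or testis.

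The chaperone genes differed little between the libraries, and in the library labelled Ad-Bmal1 most of the abundant ones were slightly higher. Of the 71 measured genes 2 were at least 1.5-fold higher with an interval above 1, DNAJC6 and DNAJC13, where 4.41% of all 13231 measured genes were. Another 2, DNAJC27 and HSPA6, were at least 1.5-fold lower with an interval below 1, where 4.90% of all genes were. At 1.2-fold the counts were 8 higher and 5 lower, beside backgrounds of 14.2% and 13.7%. At 2-fold they were 0 and 1, DNAJC27, beside 1.13% and 1.74%. Ratios of 46 genes lay above 1 and of 25 below, and the background share above 1 was 50.4%. Intervals of 29 lay above 1 (background 23.8%) and of 10 below (background 21.6%), while 32 included 1. The median log2 ratio was 0.07, beside 0.0031 over all measured genes, and under the other scalings it was 0.03 to 0.06.

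Whether an interval excludes 1 depends on the count, and chaperone genes are abundant. The median of both libraries' summed counts was 2256 in the set and 716 over all measured genes. Among the 44 members with 1000 or more summed counts, 34 had a ratio above 1, beside 55.1% of the 5658 such genes. Intervals of 25 lay above 1 (background 37.2%) and of 6 below (background 27.6%). The same backgrounds apply to the interval counts of abundant classes and lists below. Their median was 0.10 and that of all such genes 0.03. Their ratios ran from 0.737 for BAG3 to 1.32 for BAG2, and 38 of the 44 (86.4%) lay within 1.2-fold of 1, as did 73.3% of all such genes.

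**Figure D1:**
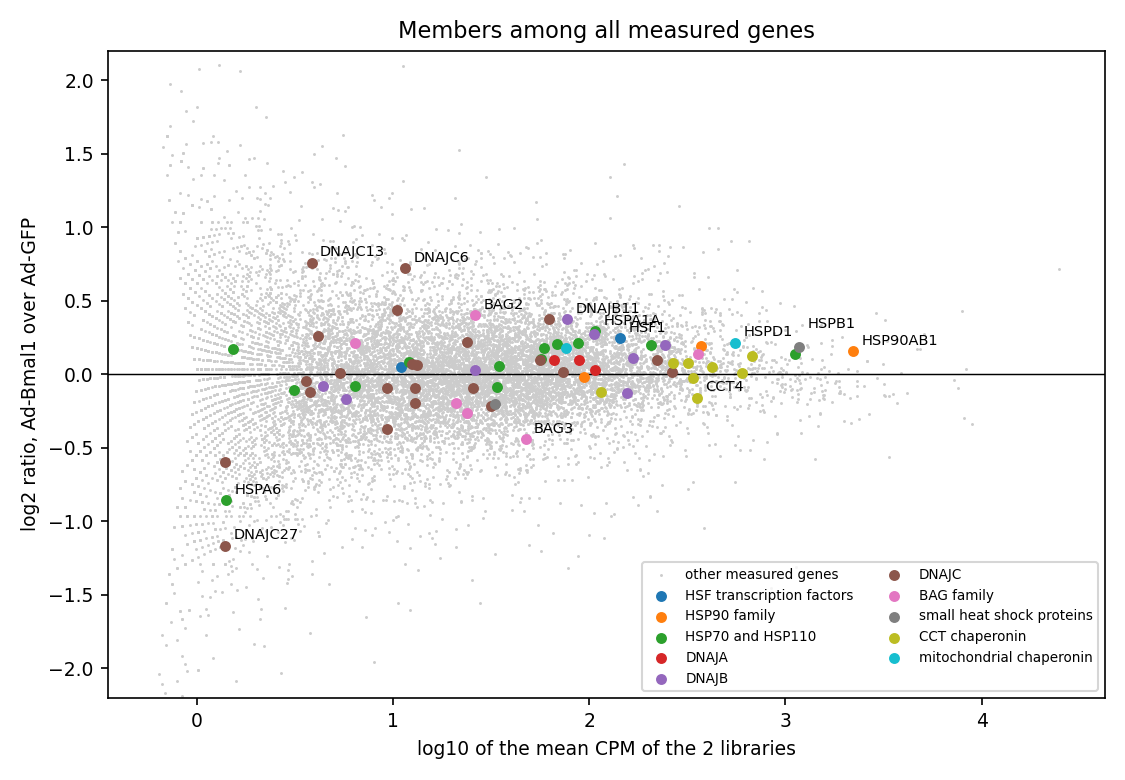
Each point is a gene that reached 1 CPM, with the log10 mean CPM on the horizontal axis and the log2 ratio, Ad-Bmal1 over Ad-GFP, on the vertical axis. Grey points are all such genes (18 lie outside the plotted range) and coloured points are the 71 chaperone genes by class. The abundant members lie close to 0 and mostly above it, and DNAJC27, HSPA6, DNAJC6 and DNAJC13, the farthest from 0, are at low CPM.

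Together the 85 genes took 1.17% of the counts of the library labelled Ad-GFP (95% Wilson interval 1.16 to 1.17) and 1.23% (1.23 to 1.24) of those of the other. The ratio of their summed counts was 1.08 (1.08 to 1.09). HSP90AB1 alone held 18.3% and 18.8% of that sum, and the 7 most abundant members held 56.0% and 57.0%. By class, the ratio of summed counts was highest for the HSF pair at 1.18 and HSPD1 with HSPE1 at 1.16. It was lowest for CCT, at 1.02 (1.01 to 1.03).

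**Figure D2:**
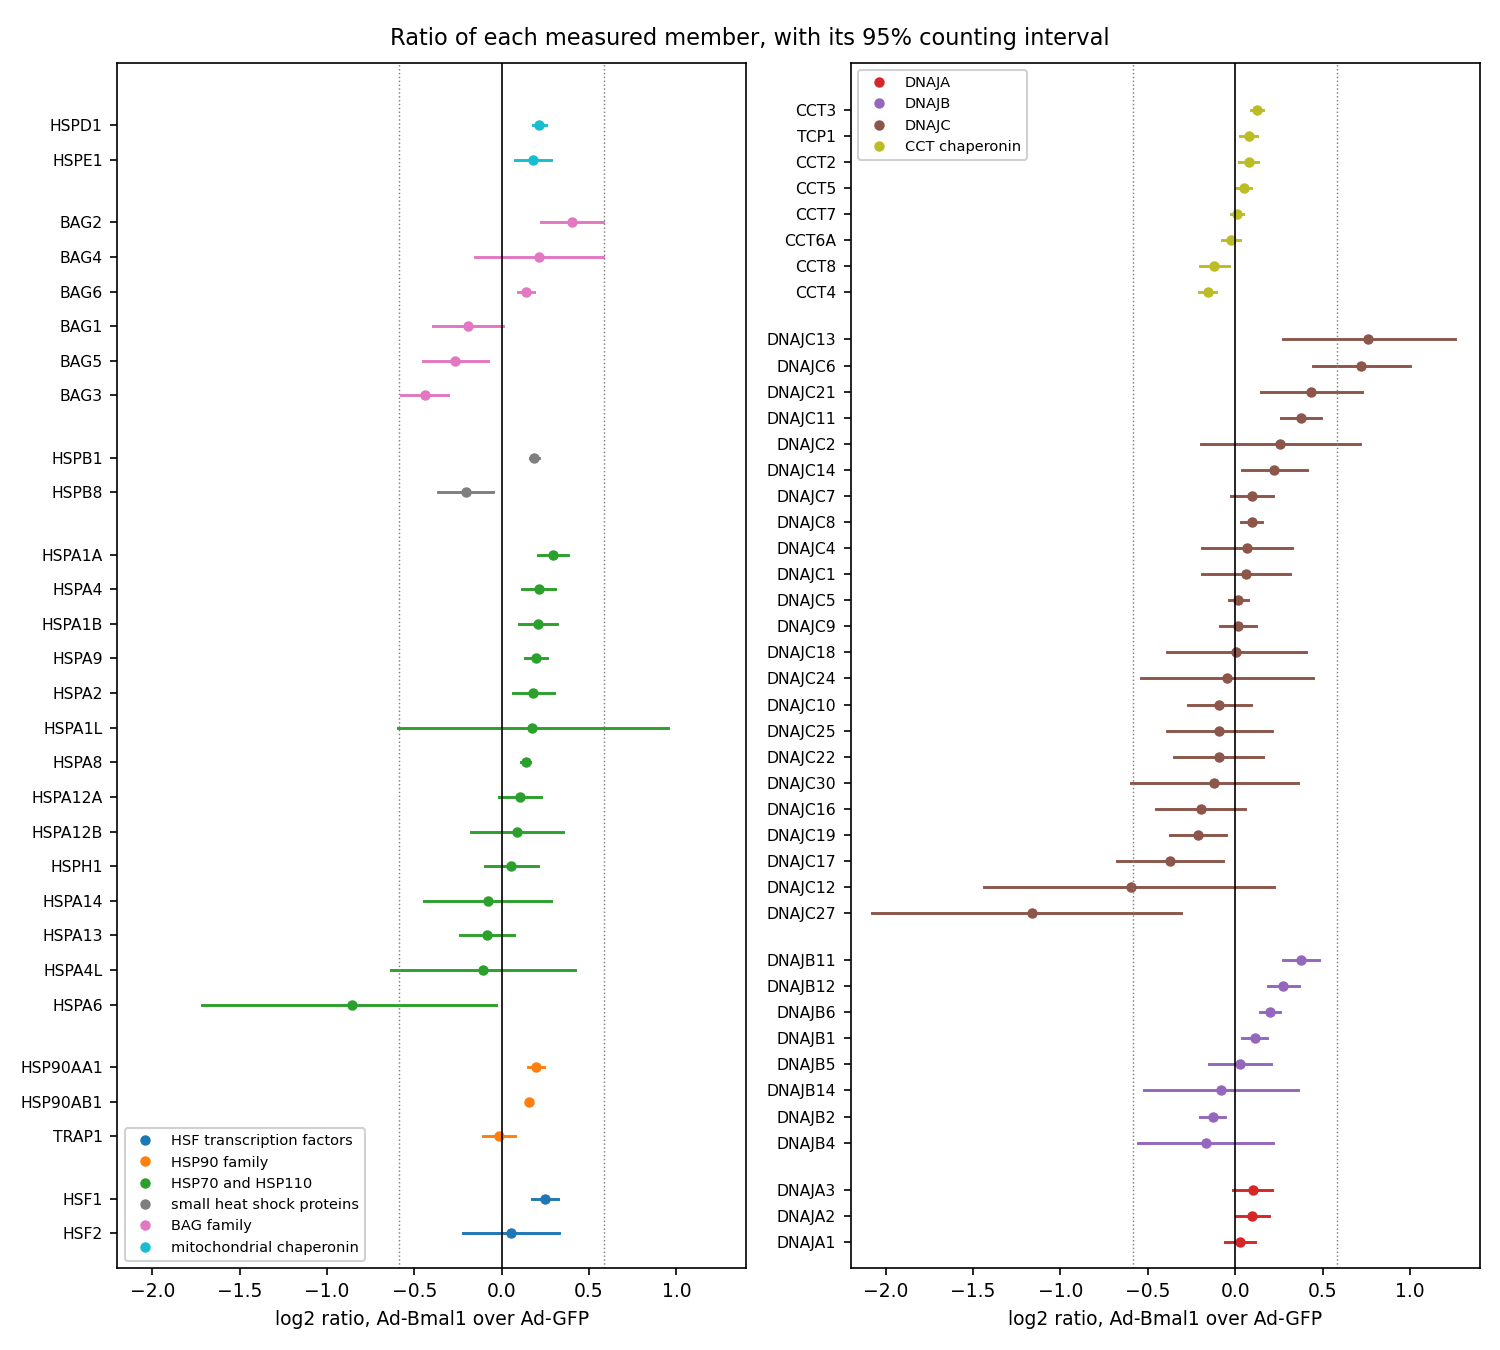
Log2 ratio, Ad-Bmal1 over Ad-GFP, of each of the 71 measured genes, grouped by class and ordered within a class. Bars are exact 95% counting intervals from 1 library per group, the solid line marks a ratio of 1 and dotted lines 1.5-fold. Intervals of 29 genes lie wholly to the right of the solid line and of 10 to the left.

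HSF1, the main activator of the heat shock response, was higher in the library labelled Ad-Bmal1, and HSF2, its developmental relative, was nearly level. HSF1 (ENSG00000185122) had 2667 and 3096 counts, a ratio of 1.19 (1.13 to 1.25). HSF2 had 218 and 221 counts and 1.04 (0.856 to 1.26), an interval that includes 1. Per kb of transcript, the CPM of HSF1 was 15.1 and 17.3 times that of HSF2 in the libraries. HSF1 overlaps DGAT1 and an unnamed transcript on the other strand, with 476 and 337 counts together. The counting is not stated to use strand, so reads in such overlaps cannot be told apart.

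Heat shock elements were looked for in the RefSeq promoter windows (GRCh38.p14, 250 bases before to 50 after a start), which held 75 of the 85 genes in 99 windows. A 3-unit element was spelled GAANNTTC followed by NNGAA, or TTCNNGAA followed by NNTTC, each the reverse complement of the other, so that both strands were covered. It was found in 7 members (9.33% of those in the table) and in 166 of all 27305 genes with a window (0.608%). The 7 were HSP90AA1, HSP90AB1, HSPA8, HSPA6, HSPD1, DNAJA1 and DNAJB6. The match of DNAJA1 begins 3 bases after its start. For HSPA8 and HSPD1 the 250 bases before the start in the matching window lie wholly in annotated exons. The HSPD1 match also lies downstream of another HSPD1 start. The shorter 2-unit forms GAANNTTC and TTCNNGAA, each its own reverse complement and contained in the longer form, were in 27 members (36.0%) and in 16.2% of all genes. A match is a run of letters and not a bound site.

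These stretches show how the elements sit in some of the genes with a match, whatever their ratio. The stretches run 5′ to 3′ on the gene's strand, with the GAA and TTC repeats and the bases between them in capitals. They are from RefSeq, GRCh38.p14. Each is the site with up to 8 bases on either side, and in HSPD1 overlapping matches run on in capitals. For HSPA6, HSPA1A, HSPA1B and HSPB1 it is instead the window up to the first base of an annotated exon.
HSP90AA1, chr14:102087112-102087140, minus strand: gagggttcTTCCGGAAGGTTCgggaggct
HSP90AB1, chr6:44247770-44247798, plus strand: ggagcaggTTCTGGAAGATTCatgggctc
HSP90AB1, chr6:44247823-44247851, plus strand: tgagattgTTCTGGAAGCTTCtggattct
HSPA8, chr11:123062346-123062374, minus strand: gcgagcttGAAAGTTCCAGAAcgctgcgg
HSPA8, chr11:123062171-123062199, minus strand: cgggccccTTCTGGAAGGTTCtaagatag
DNAJB6, chr7:157336865-157336893, plus strand: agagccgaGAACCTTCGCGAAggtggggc
DNAJA1, chr9:33025268-33025296, plus strand: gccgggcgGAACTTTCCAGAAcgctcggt
HSPD1, chr2:197500060-197500088, minus strand: attTTCTGGAAAGTTCTGGAAccgagcga
HSPA6, chr1:161524290-161524539, plus strand: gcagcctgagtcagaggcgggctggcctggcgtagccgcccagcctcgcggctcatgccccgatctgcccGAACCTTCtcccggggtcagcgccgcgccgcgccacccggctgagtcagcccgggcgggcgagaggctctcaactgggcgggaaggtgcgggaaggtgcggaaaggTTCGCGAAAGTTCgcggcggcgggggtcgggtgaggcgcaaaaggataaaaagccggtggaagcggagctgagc
HSPA1A, chr6:31815293-31815463, plus strand: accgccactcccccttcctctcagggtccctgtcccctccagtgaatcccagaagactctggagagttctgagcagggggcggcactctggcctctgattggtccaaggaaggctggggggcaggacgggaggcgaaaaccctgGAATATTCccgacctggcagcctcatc
HSPA1B, chr6:31827488-31827734, plus strand: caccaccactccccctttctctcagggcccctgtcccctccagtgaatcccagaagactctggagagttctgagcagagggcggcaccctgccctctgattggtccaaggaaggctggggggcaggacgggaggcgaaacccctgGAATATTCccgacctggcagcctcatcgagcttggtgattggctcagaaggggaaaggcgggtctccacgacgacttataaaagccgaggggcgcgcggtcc
HSPB1, chr7:76302423-76302543, plus strand: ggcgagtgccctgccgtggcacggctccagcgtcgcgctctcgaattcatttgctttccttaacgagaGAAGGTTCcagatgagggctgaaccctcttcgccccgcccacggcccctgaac

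Among measured genes the 7 with a 3-unit element had a median log2 ratio of 0.16, with 5 intervals above 1 and 1 below, that of HSPA6. The 14 with a 2-unit form alone had 0.14, with 9 above and 2 below. The 42 with neither had 0.04, with 14 above and 7 below. Over all measured genes 23.8% of intervals lay above 1 and 21.6% below, and over those with 1000 or more counts 37.2% and 27.6%. The first group was also the most abundant, with a median of 14932 summed counts beside 1652.5 in the last, and the part of abundance was not tested. BAG3, a known HSF1 target with the lowest ratio among abundant members, had neither form in its window. Nothing follows from that for the factor.

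The E-box CACGTG, the element that CLOCK and BMAL1 bind, was in the windows of 7 members (9.33%) and of 8.77% of all genes. The share was therefore near the background. The 7 were DNAJC8, DNAJC12, DNAJC16, HSF2, HSPA9, HSPD1 and HSPE1, and their ratios ran from 0.662 to 1.16 with a median log2 ratio of 0.09. For HSPD1 and HSPE1 it was 1 site between divergent starts, shown here on both strands with the E-box in capitals since both genes share it.
HSPD1, chr2:197500347-197500372, minus strand: gccctggcgaCACGTGaaaaaatcac
HSPE1, chr2:197500347-197500372, plus strand: gtgattttttCACGTGtcgccagggc

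In the library labelled Ad-Bmal1 both cytosolic HSP90 genes had intervals above 1, and the mitochondrial one did not. HSP90AB1, the constitutive form (ENSG00000096384, chromosome 6, 44246166 to 44253888, GRCh38), had 42624 and 46408 counts, a ratio of 1.11 (1.10 to 1.13). HSP90AA1, the stress-inducible form, had 7048 and 7884 counts, a ratio of 1.14 (1.11 to 1.18). The constitutive form was at 786 and 876 CPM per kb and the inducible one at 99.0 and 113, a difference of 7.94-fold and 7.73-fold. TRAP1, the HSP90 of mitochondria, had 1929 and 1864 counts and a ratio of 0.989 (0.927 to 1.05). Coding sequences of HSP90AA1 and HSP90AB1 were 76.0% identical at paired bases.

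Among the 14 measured HSP70 and HSP110 genes 6 had intervals above 1 and 1 below, with a median log2 ratio of 0.12. HSPA8, the constitutive HSC70 (ENSG00000109971, chromosome 11, 123057489 to 123063230), had 21671 and 23304 counts, a ratio of 1.10 (1.08 to 1.12). The stress-inducible pair HSPA1A and HSPA1B lay further from 1. HSPA1A (ENSG00000204389, chromosome 6, 31815464 to 31817946) had 1953 and 2341 counts with a ratio of 1.23 (1.15 to 1.30), and HSPA1B had 1283 and 1449 counts with 1.16 (1.07 to 1.25). These neighbours lie 9788 bases apart, and their coding sequences were identical at 1919 of 1923 bases. Reads may thus be split between them, and their summed counts of 3236 and 3790 gave a ratio of 1.2 (1.14 to 1.26).

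HSPA6, an HSP70 that is nearly silent without stress, went the other way. It had 37 and 20 counts, 1.81-fold lower (1.02 to 3.29), at 1.83 and 1.01 CPM. With a trend on transcript length removed its ratio was 0.576 with an interval of 0.317 to 1.02, which includes 1. The opposite directions of HSPA6 and the HSPA1 pair, all heat-inducible, thus rest on 57 counts of HSPA6 in all. Its sequence relative HSPA1A had a coding sequence 80.9% identical at paired bases.

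The other intervals above 1 belonged to HSPA9, HSPA4 and HSPA2. HSPA9, the mitochondrial mortalin, had 3898 and 4368 counts, a ratio of 1.15 (1.10 to 1.2). HSPA4, an HSP110-type exchange factor, had 1645 and 1861 counts and 1.16 (1.08 to 1.24), and HSPA2, known from the testis, 1117 and 1237 counts and 1.13 (1.04 to 1.23). HSPA2 was at 1.08 (0.996 to 1.17) with the length trend removed. HSPH1, the inducible HSP110, had 694 and 705 counts and 1.04 (0.935 to 1.16), and HSPA13, a microsomal member, 710 and 654 counts and 0.942 (0.846 to 1.05). Intervals also included 1 for HSPA12A at 1.08 (0.991 to 1.17), HSPA12B at 1.06 (0.885 to 1.27), the ribosome-bound HSPA14 at 0.946 (0.734 to 1.22), HSPA4L, of the HSP110 type, at 0.930 (0.645 to 1.34) and HSPA1L, a testis form, at 1.13 (0.662 to 1.93).

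The highest level per length in the set was that of a small heat shock protein, HSPB1, and HSPB8 went the opposite way. HSPB1, known as HSP27 (ENSG00000106211, chromosome 7, 76302544 to 76304295), had 22277 and 24776 counts, a ratio of 1.14 (1.12 to 1.16). HSPB8, which works with BAG3 in clearing misfolded protein, had 723 and 613 counts and 0.868 (0.778 to 0.967). With the length trend removed HSPB8 was at 0.912 (0.817 to 1.02), an interval that includes 1. The median log2 ratio of the pair was -0.01, and with that trend removed it changed sign to 0.07. The other 5 HSPB genes, which are mostly muscle proteins, were below 1 CPM in both libraries.

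The BAG family, exchange factors of HSP70, was divided, with 2 intervals above 1, 2 below and 2 that include it. BAG3, the stress-inducible member of selective autophagy (ENSG00000151929, chromosome 10, 119651370 to 119677819), had 1108 and 798 counts, 1.36-fold lower (1.24 to 1.49). BAG5 had 525 and 427 counts and a ratio of 0.832 (0.731 to 0.947), and BAG1, which links HSP70 to the proteasome, 453 and 387 counts and 0.874 (0.761 to 1.00), which includes 1. With the length trend removed BAG1 was at 0.865 (0.753 to 0.993), below 1. BAG2, an inhibitor of the ubiquitin ligase CHIP, had 457 and 590 counts, a ratio of 1.32 (1.17 to 1.5). With the length trend removed BAG2 was at 1.21 (1.07 to 1.37). BAG6, which guards tail-anchored proteins on the way to the ER membrane, had 6906 and 7429 counts and 1.10 (1.07 to 1.14), and BAG4, a silencer of death receptors, 120 and 136 counts and 1.16 (0.901 to 1.49). Per kb, the CPM of BAG6 was 4.20 times that of BAG3 in the library labelled Ad-GFP and 6.27 times in the other.

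The J proteins of the A and B families, which deliver clients to HSP70, were level or slightly higher. DNAJA1, a farnesylated partner of HSC70, had 2153 and 2147 counts and a ratio of 1.02 (0.961 to 1.08). DNAJA2 had 1747 and 1828 counts and 1.07 (1.00 to 1.14), just above 1, and DNAJA3, its mitochondrial relative, 1298 and 1360 counts and 1.07 (0.993 to 1.16). The 8 measured B members had 4 intervals above 1 and 1 below, with a median log2 ratio of 0.07. DNAJB6, a suppressor of polyglutamine aggregation, had 4612 and 5182 counts and 1.15 (1.10 to 1.2). DNAJB1, the inducible HSP40, had 3271 and 3452 counts and 1.08 (1.03 to 1.13), and DNAJB12, which is anchored in the ER membrane, 1945 and 2302 counts and 1.21 (1.14 to 1.29). DNAJB2, a neuronal J protein that binds ubiquitin, was the exception with 3314 and 2963 counts and 0.915 (0.870 to 0.962).

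DNAJB11, the ER partner of HSPA5, had the highest ratio of the B family, with 1367 and 1732 counts and 1.30 (1.21 to 1.39) (named after its value was seen). HSPA5 itself, outside the set, had 24215 and 27146 counts and 1.15 (1.13 to 1.17) (also named after its value was seen). In the ER list given below 9 of 15 intervals lay above 1 and 1 below. DNAJB4, DNAJB5 and DNAJB14 had intervals that included 1, with ratios of 0.890, 1.02 and 0.945.

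The C family, the most varied J proteins, held 3 of the 4 genes that were beyond 1.5-fold with an interval that excludes 1, all of low count. DNAJC6, the neuronal auxilin that strips clathrin from vesicles, had 177 and 285 counts, a ratio of 1.65 (1.36 to 2.00). DNAJC13, which acts with HSC70 on endosomes, had 58 and 96 counts and 1.69 (1.21 to 2.39). DNAJC27, a small GTPase with a J domain, had 39 and 17 counts, 2.24-fold lower (1.24 to 4.23). Transcripts of DNAJC6 and DNAJC13 are 5916 and 7730 bases long, in the range where the median ratio of genes with 1000 or more summed counts lay above 1, though both have fewer counts than that. With the length trend removed their ratios were 1.55 (1.28 to 1.88) and 1.52 (1.08 to 2.14).

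Of the 23 measured C members 6 had intervals above 1, 3 below and 14 that included it, with a median log2 ratio of 0.02 that was -0.018 when scaled by total counts and -0.0039 with DESeq2 size factors. Of the 4 with the highest counts 3 lay within 1.2-fold of 1. DNAJC5, the synaptic vesicle protein CSP alpha, had 5335 and 5280 counts and 1.01 (0.975 to 1.05). DNAJC8, found in the spliceosome, had 4332 and 4519 counts and 1.07 (1.02 to 1.11), and DNAJC9, a histone chaperone, 1489 and 1472 counts and 1.01 (0.941 to 1.09). DNAJC11, which joins the inner membrane complex that shapes mitochondrial cristae, was higher, with 1100 and 1397 counts and 1.30 (1.2 to 1.41). The other intervals above 1 were those of DNAJC14 and DNAJC21, and those below were of DNAJC17 and DNAJC19, at ratios of 1.17, 1.35, 0.773 and 0.863. With the length trend removed DNAJC19 was at 0.922 (0.825 to 1.03), an interval that includes 1. DNAJC10 at 0.782 (0.690 to 0.885) and DNAJC16 at 0.816 (0.684 to 0.974) then lay below 1, and DNAJC7 at 1.13 (1.04 to 1.23) above it. The 14 whose intervals included 1 ran from DNAJC12 with 34 and 22 counts and 0.662 (0.369 to 1.17) to DNAJC2 with 77 and 90 counts and 1.2 (0.872 to 1.64).

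The CCT chaperonin, a ring of 8 different subunits, lay close to level. All 8 subunits made outside the testis were measured, with ratios from 0.896 to 1.09 and a median log2 ratio of 0.03 (-0.0053 when scaled by total counts). Intervals of 4 lay above 1, CCT3 with 13122 and 13984 counts and 1.09 (1.06 to 1.12), TCP1 with 6323 and 6521 counts and 1.06 (1.02 to 1.09), CCT2 with 5270 and 5434 counts and 1.06 (1.02 to 1.10), and CCT5 with 8416 and 8505 counts and 1.03 (1.00 to 1.07). CCT4 had 7596 and 6653 counts and 0.896 (0.867 to 0.926), and CCT8 2423 and 2181 counts and 0.921 (0.869 to 0.976), both below 1, though CCT8 was at 0.972 (0.917 to 1.03) with the length trend removed. CCT7 had 12190 and 11997 counts and CCT6A 6882 and 6615 counts, with intervals of 0.982 to 1.03 and 0.951 to 1.02 that include 1. That trend removed, CCT5 was at 1.03 (0.995 to 1.06), which includes 1, and CCT7 at 1.06 (1.04 to 1.09), above it. CCT6B, the testis form of CCT6A, had 3 and 7 counts. TCP1 overlaps ACAT2 on the other strand, and the genes overlapping it had 2769 and 3510 counts together. Those overlapping CCT4 had 321 and 108. Reads in such overlaps cannot be told apart.

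Subunits of the ring differed more from each other in level than between the libraries. CCT3 was at 301 and 328 CPM per kb and CCT7 at 296 and 298, while CCT8 was at 59.6 and 54.9. Between these came CCT4 at 149 and 133, CCT6A at 125 and 123, TCP1 at 125 and 132, CCT2 at 119 and 125 and CCT5 at 113 and 117. The highest subunit was 5.05 times the lowest in the library labelled Ad-GFP and 5.98 times in the other. Divided by kb of coding sequence instead, these were 5.45 and 6.45 times. That scale changes the length only, and reads of the transcript ends are still counted.

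**Figure D3:**
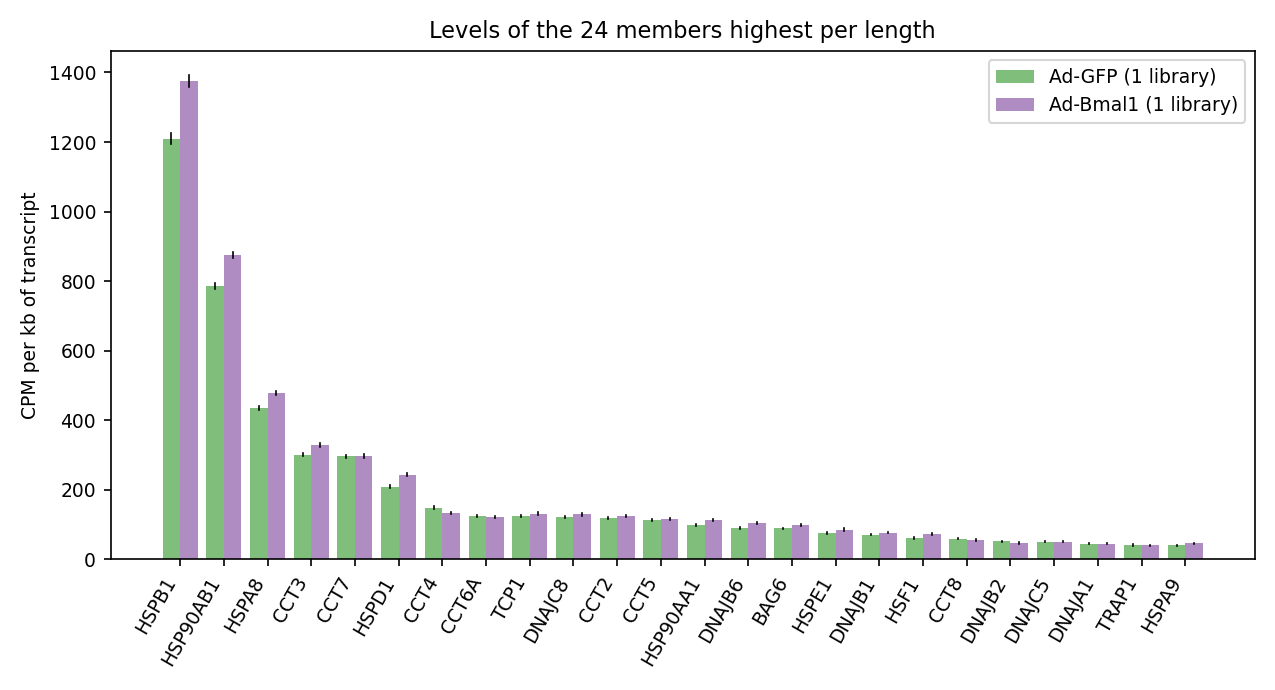
CPM per kb of the longest coding transcript for the 24 chaperone genes that are highest on this scale, with green bars for Ad-GFP and purple bars for Ad-Bmal1. Black lines are exact 95% Poisson intervals of each count, which cover counting error only. HSPB1, HSP90AB1 and HSPA8 stand above the rest in both libraries, and the CCT subunits run from CCT3 down to CCT8.

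HSPD1 and HSPE1, the ring and the lid of the mitochondrial chaperonin, were higher to a similar degree. HSPD1 (ENSG00000144381, chromosome 2, 197486581 to 197516737) had 10402 and 11807 counts at a ratio of 1.16 (1.13 to 1.19), and HSPE1 had 1451 and 1605 counts and 1.13 (1.05 to 1.22). The pair is transcribed from divergent starts on chromosome 2, their annotated loci overlap on opposite strands, and reads in the overlap cannot be told apart. Per kb of transcript HSPD1 was 2.77 and 2.85 times HSPE1, but per kb of coding sequence 1.28 and 1.31 times. The latter scale still counts reads of the transcript ends. With HSPA9 these mitochondrial chaperones had intervals above 1, while those of TRAP1 and DNAJA3 included 1. With the length trend removed DNAJA3 was at 1.09 (1.01 to 1.18), above 1.

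In order of CPM per kb, HSPB1 was at 1209 and 1376, HSP90AB1 at 786 and 876 and HSPA8 at 434 and 478, and these ranks were the same in both libraries. In the library labelled Ad-GFP 12 members reached 100 CPM per kb. Neighbours further down, such as CCT6A and TCP1 at 125 and 125, in the library labelled Ad-GFP, did not differ beyond counting error there and changed places in the other library. HSPA8 was 11.2 and 10.0 times HSPA1A. Per kb of coding sequence the first 3 kept their ranks, but DNAJC5, whose transcript is mostly untranslated, moved from rank 21 to rank 4. All counts of a gene enter this scale, so it raises genes with long untranslated ends.

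Genes that work with these chaperones were described from lists outside the set. Backgrounds for their interval counts were 23.8% above 1 and 21.6% below over all measured genes. Among genes with 1000 or more summed counts they were 37.2% and 27.6%. The 27 HSP90 co-chaperone genes had a median log2 ratio of 0.12, with 9 intervals above 1, 4 below and none beyond 1.5-fold. FKBP8 and PTGES3, the most abundant, had ratios of 0.942 (0.917 to 0.966) and 1.08 (1.05 to 1.12). The 11 measured HSP70 regulators outside the BAG family had a median of 0.17, with 6 above and 2 below. These included the unfolding ATPase VCP at 1.12 (1.09 to 1.16) and SGTA, which hands over tail-anchored proteins, at 1.03 (0.992 to 1.08). HSPBP1, an exchange factor of HSP70, had 2411 and 1775 counts and 0.753 (0.708 to 0.801) (named after its value was seen).

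Helpers and clients of CCT are listed next to its subunits, and no difference between these groups was tested. Prefoldin and other CCT cofactors had a median log2 ratio of -0.05 over 17 of 18 listed genes, with 1 interval above 1, 4 below and 12 that include it. PFDN5, a prefoldin subunit, had a ratio of 0.914 (0.873 to 0.957) and the tubulin cofactor TBCB 0.965 (0.921 to 1.01). ARL2, a GTPase of tubulin folding, had 569 and 347 counts and 0.624 (0.544 to 0.714), beyond 1.5-fold. Among 13 actins and tubulins 7 intervals lay above 1 and 4 below, with a median of 0.02. ACTB had 181240 and 144312 counts with 0.815 (0.809 to 0.820), while its close paralog ACTG1 had 166656 and 166726 counts with 1.02 (1.02 to 1.03). TUBB3, a neuronal tubulin, had 34 and 16 counts and 0.482 (0.248 to 0.896).

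Other HSF1-responsive genes did not share a direction. Of 18, all measured, 8 intervals lay above 1 and 8 below, with a median log2 ratio of 0.02. RGS2, a regulator of G protein signalling, had 72 and 35 counts and 0.497 (0.322 to 0.755). Of 9 measured partners and regulators of HSF1, 2 intervals lay above 1 and 3 below, with a median of -0.04, and 1 gene was beyond 1.5-fold in each direction. EP300, an acetyltransferase that acts on HSF1 among many proteins, had 552 and 865 counts and 1.60 (1.44 to 1.79). Its transcript is 9587 bases long, and abundant genes from 5735 bases up had a median log2 ratio of 0.19. The ratio of EP300 with the length trend removed is not given here. MAPKAPK2, the kinase that phosphorylates HSPB1, had 5899 and 3030 counts and 0.526 (0.503 to 0.549). The HSF1-binding protein gene HSBP1 was at 0.970 (0.944 to 0.997) and the kinase cochaperone CDC37 at 0.997 (0.967 to 1.03).

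In the ER list, 9 of 15 intervals lay above 1 and 1 below, with a median log2 ratio of 0.07, and CALR and P4HB, the lectin chaperone and a disulfide isomerase, had ratios of 1.05 (1.04 to 1.06) and 0.968 (0.955 to 0.980). Mitochondrial import and quality control genes had a median of 0.03, with 8 intervals above and 7 below of 22. The protease gene LONP1 was at 1.18 (1.15 to 1.21) and TIMM50, of the import channel, at 1.07 (1.02 to 1.11). PAM16, which holds back the import J protein, had 45 and 24 counts and 0.546 (0.318 to 0.915). Proteasome subunits had a median of 0.05, with 16 intervals above and 7 below of 32, and ratios from 0.767 to 1.28. The most abundant were PSMD2 at 0.914 (0.899 to 0.930) and PSMA7 at 1.11 (1.08 to 1.14). These lists are abundant, with median summed counts of 14735 for the ER list and 7060 for the proteasome. Over all genes with 1000 or more summed counts 37.2% of intervals lay above 1 and 27.6% below. No difference between these lists and the chaperone set was tested.

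**Figure D4:**
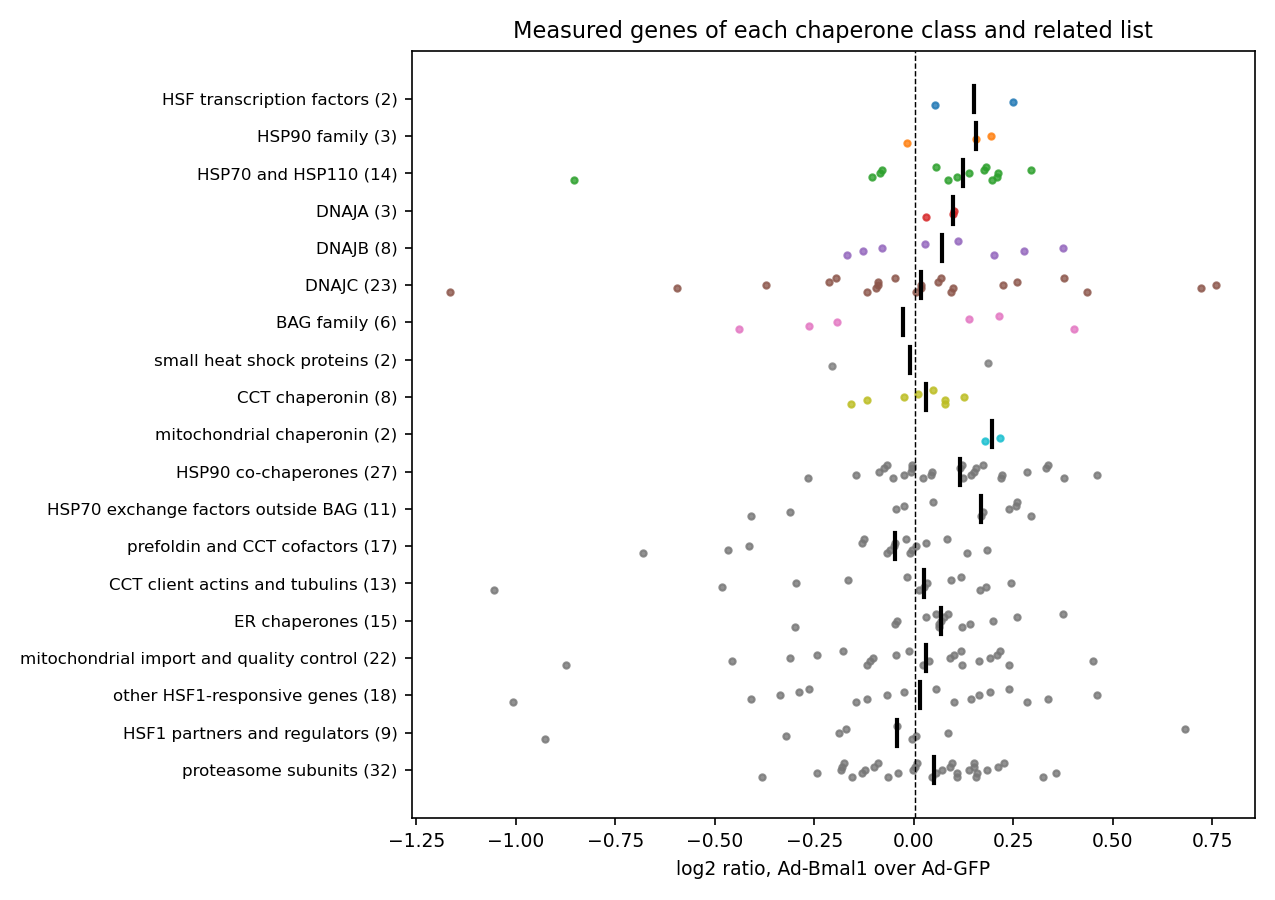
Each point is the log2 ratio, Ad-Bmal1 over Ad-GFP, of a measured gene, with coloured points for the chaperone classes and grey points for the other lists, and the number of genes in brackets. Short bars are medians and the dashed line is the median of all 13231 measured genes. The medians lie between -0.05 for prefoldin and CCT cofactors and 0.20 for HSPD1 with HSPE1.

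Ratios of abundant genes were higher for longer transcripts, and members at both ends of that scale were checked for it. Among genes with 1000 or more summed counts the median log2 ratio was -0.07 in the shortest of 6 equal groups, up to 1666 bases, and 0.19 in the longest, from 5735 bases. The 3 abundant members of the shortest group were HSPB1, HSPE1 and DNAJC19, with a median of 0.18. The 3 of the longest group were BAG2, HSPA12A and DNAJC10, with a median of 0.11. With the trend removed, HSPB1 was at 1.21, and the mid-length HSPD1 and HSP90AB1 were at 1.21 and 1.14. Ratios of the long members fell, to 1.21 (1.07 to 1.37) for BAG2, 1.01 (0.933 to 1.10) for HSPA12A and 0.782 for DNAJC10. Of 29 intervals above 1, 27 stayed there, and of 10 below 1, 6 did. With members that newly excluded 1, 31 intervals lay above 1 and 9 below after its removal. Overlap matters too, since 49 of the 71 measured genes overlap another annotated gene, 37 of them one on the other strand.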

How the data were processed

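Per the labels, polyadenylated RNA of HK-2 cells was read in pairs of 150 bp. The authors deposited raw counts, whole numbers for each Ensembl gene with no sign of normalisation. The submitters' processing notes name HISAT2 and GRCh38. How reads were counted, with which annotation and strand setting, is not given in the sources used here. Groups came from the sample titles, 1 library each. The labels write out HK-2 as kidney 2 (Ad-GFP) and kidney 3 (Ad-Bmal1), which was read as a slip. No column of per-sample values was left unused (0).

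Symbols came from the reference tables for 57532 of 58302 identifiers (98.7%), and gene types, positions and transcript lengths from GENCODE release 29. TMM scaling (edgeR 4.0.16, R 4.3.3) gave factors of 1.01 (Ad-GFP) and 0.988 (Ad-Bmal1). Ratios, intervals and motif searches were computed in Python 3.11.15 with pandas 2.3.3, scipy 1.17.1, statsmodels 0.14.6 and Biopython 1.88. A gene was measured at 1 CPM or more in at least 1 library. Intervals at 95% are exact binomial intervals of the ratio given both counts, and cover counting error only. The reads carried no molecular identifiers as far as the labels say. Repeated copies of a molecule therefore cannot be told apart from separate molecules, and the intervals may be too narrow. With 1 library per group no p-value was computed. A gene was called at 1.5-fold with an interval that excludes 1. The procedure was tested on simulated counts that carry counting error only, so that test cannot check variation between cultures.

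The members and lists were chosen with earlier results of these data known. Named genes were BMAL1, all measured members outside the J proteins, the 4 most abundant of each J-protein family with those called, and per further list the 2 most abundant with up to 2 called. The most abundant genes of the list of other HSF1-responsive genes are not reported here. Further J proteins, HSPA5 and HSPBP1 were named after their values were seen. The E-box search was added to the planned motif search. Pseudogenes and readthrough genes were left out of the set. Protein sequences were not analysed here.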

Additional observations from a re-analysis of the deposited data

How the results depend on the processing

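No paired analysis was possible because each group has 1 library, and for the same reason no replicate could be left out. Counting intervals understate the error between cultures, and genes near 1 CPM have wide ones. Scaling by DESeq2 1.42.0, by upper quartiles, by total counts or on protein-coding genes alone was tried, as were removal of the length trend, no filter, a minimum of 10 CPM and HSPA1A with HSPA1B summed. The median log2 ratio of the measured members stayed above 0 under each, from 0.03 to 0.09. Members with an interval above 1 numbered 24 to 31 and below 1 8 to 12 under these settings.

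Medians of classes near 0 changed sign. That of CCT was -0.0053 with total counts, that of DNAJC -0.018 with total counts and -0.0039 with DESeq2 size factors, and that of the small heat shock proteins 0.072 with the length trend removed and 0.19 with no filter. The BAG median moved to -0.19 at a minimum of 10 CPM. The causes were not tested, except that the filters change which genes enter. Members called higher numbered 8 at 1.2-fold, 0 at 2-fold, 0 with the interval wholly beyond 1.5-fold and 1 at 10 CPM. Members called lower numbered 5, 1, 0 and 0 at these settings, and 1 with the length trend removed. Ratios of single members left their own intervals in 12 genes with the length trend removed, in 3 with total counts (HSP90AB1, HSPA8 and HSPB1) and in 1 with DESeq2 (HSP90AB1). Adding pseudogene counts, chosen after seeing the data, left all 13 genes tried within their intervals.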

Other observations

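Processed pseudogenes of the chaperone genes carried few counts beside their parents. The pseudogene of DNAJB6 had the most, with 200 and 254 counts, and added to the parent gave a ratio of 1.16 (1.11 to 1.2). Those of HSPD1 had 112 and 117 counts together, those of HSP90AB1 109 and 103, and those of HSPE1 26 and 36. Reads in such copies cannot be told apart from those of the parent gene where the sequences are identical.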
